A study of Mus musculus with 9 samples.

Results

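The genes described here encode 7 dual-specificity MAP kinase phosphatases (Dusp1, Dusp4, Dusp5, Dusp6, Dusp8, Dusp10 and Dusp16) and 3 Sprouty proteins (Spry1, Spry2 and Spry4). They were taken by gene symbol, and all 10 were found among the 22180 genes tested. Expression was measured on 9 Affymetrix Mouse Gene 2.1 ST arrays in TAMH cells, with 3 arrays for each of 3 groups: paraquat at 126 µM, diquat at 18 µM and medium alone, each for 9 h. Both agents are herbicides of the viologen class, bipyridinium dications that accept an electron in cells and pass it to oxygen, which yields superoxide. TAMH is a continuous mouse hepatocyte line from animals carrying a transforming growth factor alpha transgene under a metallothionein promoter. All 3 groups therefore share that transgene, and all 3 were kept in medium with dexamethasone, insulin, transferrin and selenium. The labels give 3 dishes per treatment and leave unsaid whether these were independent cultures. The p-values therefore reflect the variation among these dishes or arrays, part of which may be technical.

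Mitogen-activated protein kinases (ERK, JNK and p38) are switched on by phosphorylation of a threonine and a tyrosine in the activation loop, and the dual-specificity phosphatases remove both phosphates. Several of these phosphatase genes are themselves transcribed when a MAP kinase is active, which makes them feedback inhibitors. Sprouty proteins act earlier, between receptor tyrosine kinases and the kinase RAF, and are likewise induced by the pathway that they restrain. In hepatocytes the ERK branch carries signals from the EGF receptor, and the JNK and p38 branches respond to oxidants, cytokines and other stress.

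Values are deposited log2 expression values, so a difference of 1 is a 2-fold change. A gene is said to have risen or fallen where limma's p-value, adjusted over all 22180 genes by the Benjamini-Hochberg method, was under 0.05. Array medians lay between 5.95 and 6.04, the whole table ran from 3.89 to 13.19, and no pair of arrays held identical values. Diquat replicate 3 stood apart from its group mates by a root-mean-square log2 difference of 0.134, against 0.0714 to 0.115 for the other arrays. Hepatocyte transcripts were present: Alb, which encodes albumin, averaged 12.73 in paraquat cells, 12.73 in diquat cells and 12.73 in control cells, and Hnf4a, a hepatocyte transcription factor, averaged 10.58, 10.56 and 10.74 in the same 3 groups. Of the hepatocyte markers Serpinc1, which encodes antithrombin, had the lowest values, 5.46, 5.40 and 5.40.

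Most of the 10 genes rose with both herbicides. With paraquat 7 of 10 rose and 0 fell, where 2.33% of all genes rose and 2.24% fell (4.57% called in either direction). With diquat 8 of 10 rose and 0 fell, where 4.13% of all genes rose and 2.89% fell (7.02% called in either direction). The 10 genes, and the gene lists used further below, were chosen with earlier results of these data known. The shares of all genes are therefore given for scale and are not a test of these sets. The median log2 change over the 10 genes was 0.34 with paraquat and 0.34 with diquat, beside medians of -0.0033 and -0.02 over all genes. In 7 of the 10 the rise passed in both comparisons, against 2% of all genes, and the comparisons share their control arrays. Without diquat replicate 3, 6 of 10 rose with diquat and the count with paraquat was again 7. All 3 paraquat arrays were above all 3 control arrays for 8 of the 10 genes and below them for 0, against 9.05% and 10.4% of all genes (19.4% apart in either direction). All 3 diquat arrays were above all 3 control arrays for 8 of the 10 and below them for 1, against 10.1% and 11.2% of all genes (21.3% in either direction). At an unadjusted p under 0.05, 8 of the 10 passed with paraquat, against 15% of all genes, and 9 with diquat, against 21.6%. How the diquat calls over all genes split depended on the scaling. Of the called genes 58.9% were higher with the deposited values, 77.5% when arrays were centred on their medians and 45.2% with quantile normalization, and under each of these 8 of the 10 genes rose.

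**Figure D1:**
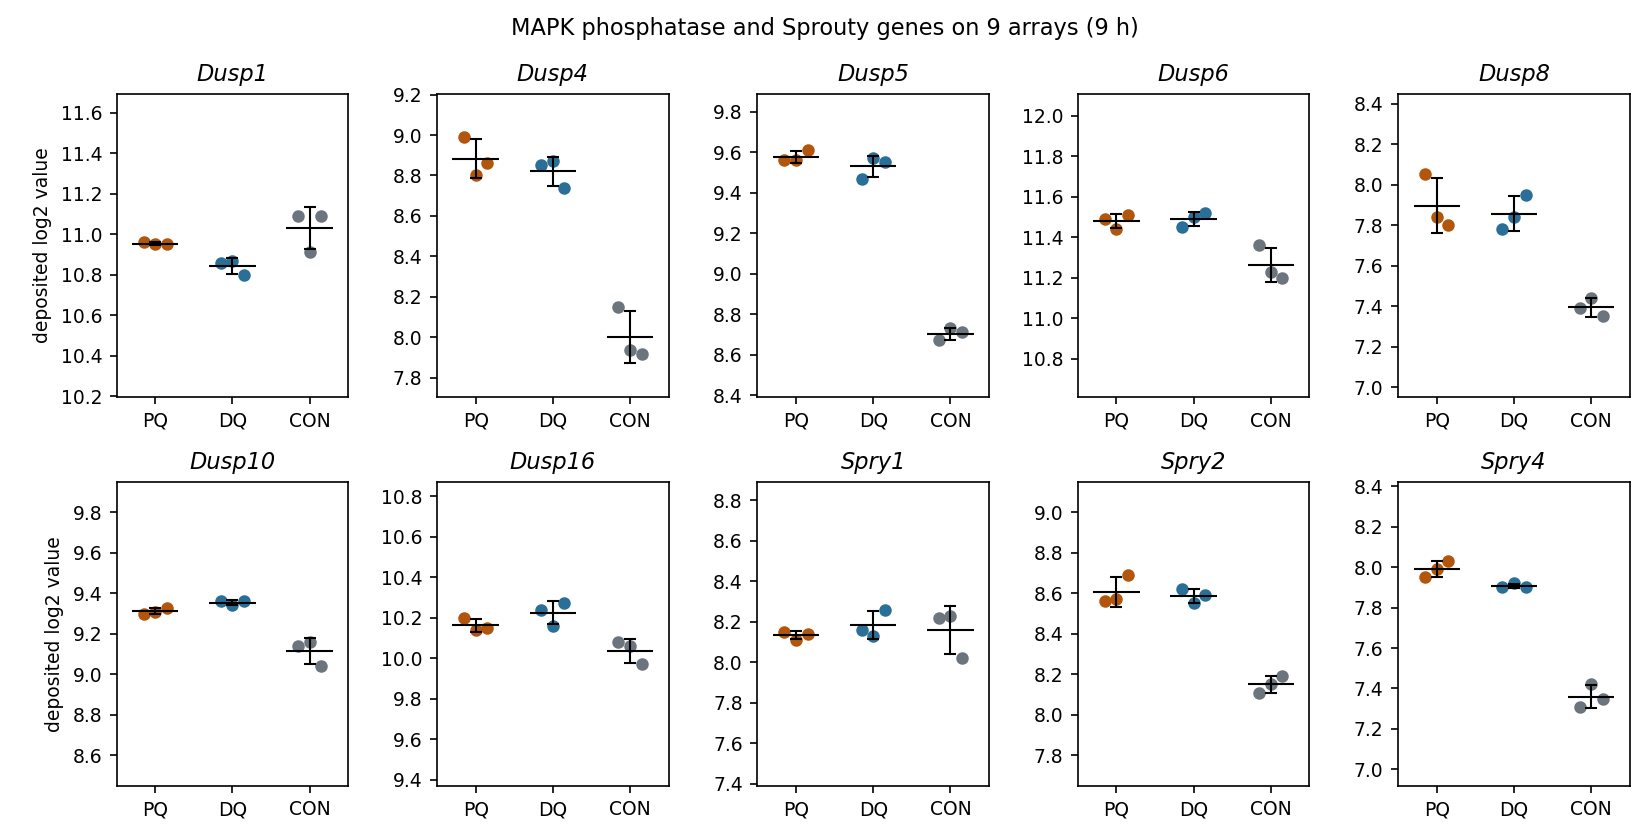
Deposited log2 value of each of the 10 genes (panels) on every array, for paraquat (PQ), diquat (DQ) and control (CON) arrays; points are arrays, bars are the group mean and SD (n = 3), and every panel spans the same height on the log2 axis. The treated arrays lie above all control arrays for Dusp4, Dusp5, Dusp6, Dusp8, Dusp10, Dusp16, Spry2 and Spry4, and overlap them for Spry1. For Dusp1 the diquat arrays lie below all control arrays and the paraquat arrays lie within the control range.

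Among the nuclear phosphatases, Dusp4 and Dusp5 changed most. Dusp4, which dephosphorylates ERK and JNK in the nucleus, stood at 8.99, 8.80 and 8.86 on the paraquat arrays, 8.85, 8.87 and 8.74 on the diquat arrays and 8.15, 7.94 and 7.92 on the control arrays. Every treated array was above every control array, and control replicate 1 was the highest of its group. The change was 1.84-fold with paraquat (log2 0.88 ± 0.07, SE, limma adjusted p = 8.21e-05) and 1.76-fold with diquat (log2 0.82 ± 0.07, SE, limma adjusted p = 0.00012).

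Dusp5, a nuclear phosphatase selective for ERK, stood at 9.56, 9.56 and 9.61 on the paraquat arrays, 9.47, 9.57 and 9.55 on the diquat arrays and 8.67, 8.73 and 8.71 on the control arrays. Its groups were tight, with SDs of 0.03, 0.05 and 0.03 for paraquat, diquat and control cells. It rose 1.83-fold with paraquat (95% interval of the log2 change 0.79 to 0.96, limma adjusted p = 1.74e-06) and 1.77-fold with diquat (0.74 to 0.91, limma adjusted p = 2.38e-06). Of the 22180 log2 changes ordered downward from the highest, Dusp4 and Dusp5 held places 27 and 28 with paraquat and 36 and 34 with diquat. Both calls stood under all 18 other settings tried in both comparisons.

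Dusp1, the third nuclear phosphatase, acts on p38, JNK and ERK and is a classical stress and glucocorticoid response gene. It stood at 10.96, 10.95 and 10.95 on the paraquat arrays, 10.86, 10.87 and 10.80 on the diquat arrays and 11.09, 10.91 and 11.09 on the control arrays. The diquat arrays were all below the control arrays, while the paraquat arrays lay within the control range. The log2 change was -0.08 with paraquat (limma adjusted p = 0.584) and -0.19 with diquat (limma adjusted p = 0.0548), so neither passed. Leaving out control replicate 2, the lowest control array, gave a diquat change of -0.25 with a limma adjusted p of 0.0114. The diquat change also passed with a trended, robust variance (adjusted p = 0.0305), among the genes at or above the median level (0.0293) and after quantile normalization (0.028), each in limma.

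Dusp6, the cytoplasmic phosphatase that is selective for ERK, had a smaller rise. It stood at 11.49, 11.44 and 11.51 on the paraquat arrays, 11.45, 11.50 and 11.52 on the diquat arrays and 11.36, 11.23 and 11.20 on the control arrays. Treated and control arrays did not overlap, and control replicate 1 came closest to the treated arrays. The change was 1.16-fold with paraquat (log2 0.22, limma adjusted p = 0.0276) and 1.17-fold with diquat (log2 0.23, limma adjusted p = 0.0179). These calls depended on single arrays. The diquat call was lost without control replicate 2 (limma adjusted p = 0.081) or 3 (0.068) or diquat replicate 3 (0.0502), and the paraquat call without control replicate 2 (0.119) or 3 (0.0993) or any 1 paraquat array (0.0602 to 0.114). A second feature with the symbol Dusp6 was dim, at 5.01 in paraquat, 5.01 in diquat and 4.97 in control cells, and its log2 changes of 0.04 with paraquat and 0.04 with diquat did not pass.

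The remaining 3 phosphatases prefer JNK and p38 to ERK. Dusp8 stood at 8.05, 7.84 and 7.80 on the paraquat arrays, 7.78, 7.84 and 7.95 on the diquat arrays and 7.39, 7.44 and 7.35 on the control arrays. All treated arrays were above the control arrays, and paraquat replicate 1 was the highest of all. It rose 1.42-fold with paraquat (log2 0.50 ± 0.07, SE, limma adjusted p = 0.00234) and 1.38-fold with diquat (log2 0.46 ± 0.07, SE, limma adjusted p = 0.00293).

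Dusp10 stood at 9.30, 9.31 and 9.33 on the paraquat arrays, 9.36, 9.34 and 9.36 on the diquat arrays and 9.14, 9.16 and 9.04 on the control arrays. Its 3 groups did not overlap: diquat was highest and control lowest. The difference between the treatments was small and did not pass (paraquat minus diquat, log2 -0.04, limma adjusted p = 0.71). The rise was 1.15-fold with paraquat (limma adjusted p = 0.0157) and 1.18-fold with diquat (limma adjusted p = 0.0051). Its paraquat call was lost without paraquat replicate 2 (limma adjusted p = 0.0585) or 3 (0.0679). The diquat call stood without each array in turn.

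Dusp16, a phosphatase that shuttles between nucleus and cytoplasm, stood at 10.20, 10.14 and 10.15 on the paraquat arrays, 10.24, 10.16 and 10.27 on the diquat arrays and 10.08, 10.06 and 9.97 on the control arrays. All treated arrays were above the control arrays. The diquat change of 1.14-fold passed (log2 0.19, limma adjusted p = 0.0314) and the paraquat change of 1.09-fold did not (log2 0.13, limma adjusted p = 0.177). The diquat call was lost without control replicate 1, 2 or 3 (limma adjusted p = 0.0571, 0.0808 and 0.106), diquat replicate 1 or 3 (0.0924 and 0.081) or paraquat replicate 3 (0.0514).

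**Figure D2:**
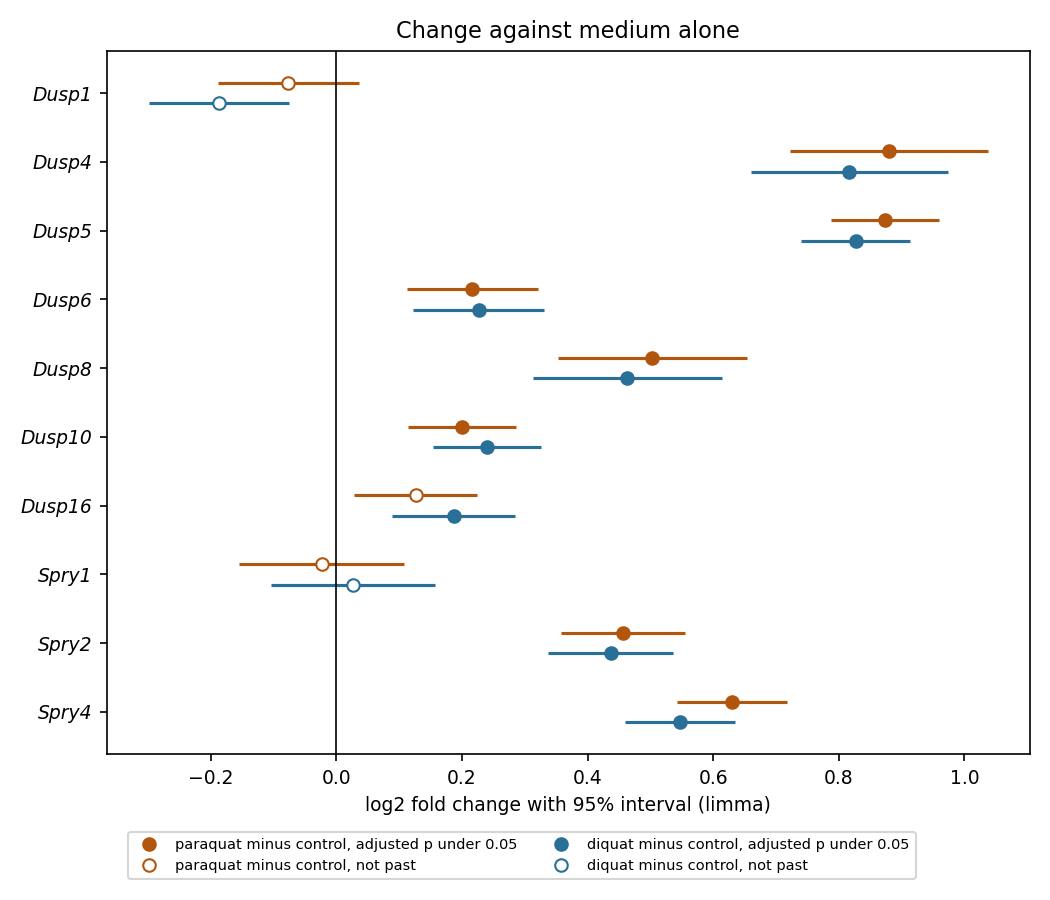
log2 fold change against medium alone for each gene, with limma's 95% interval, for paraquat (upper of each pair) and diquat (lower); filled points have an adjusted p under 0.05. Dusp4 and Dusp5 lie highest, between 0.82 and 0.88, and the Spry1 intervals span 0.

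Of the Sprouty genes Spry2 and Spry4 rose and Spry1 did not pass. Spry4, an inhibitor of receptor-driven RAS and RAF activation, stood at 7.95, 7.99 and 8.03 on the paraquat arrays, 7.90, 7.92 and 7.90 on the diquat arrays and 7.31, 7.42 and 7.35 on the control arrays. All treated arrays were above the control arrays, and all paraquat arrays above the diquat arrays. It rose 1.55-fold with paraquat (log2 0.63 ± 0.04, SE, limma adjusted p = 1.33e-05) and 1.46-fold with diquat (log2 0.55 ± 0.04, SE, limma adjusted p = 3.44e-05).

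Spry2, which also binds the ubiquitin ligase CBL and slows EGF receptor breakdown, stood at 8.56, 8.57 and 8.69 on the paraquat arrays, 8.62, 8.55 and 8.59 on the diquat arrays and 8.11, 8.15 and 8.19 on the control arrays. Treated and control arrays did not overlap. The rise was 1.37-fold with paraquat (limma adjusted p = 0.000314) and 1.35-fold with diquat (limma adjusted p = 0.000353).

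Spry1, the third Sprouty measured here, stood at 8.15, 8.11 and 8.14 on the paraquat arrays, 8.16, 8.13 and 8.26 on the diquat arrays and 8.22, 8.23 and 8.02 on the control arrays. The 3 groups overlapped. Its log2 change was -0.02 with paraquat (95% interval -0.15 to 0.11, limma adjusted p = 0.931) and 0.03 with diquat (-0.10 to 0.16, limma adjusted p = 0.835), and the upper ends of these intervals lay below the lower ends for Spry2, 0.36 with paraquat and 0.34 with diquat. The difference between the 2 genes' changes was not tested. The calls for Spry2, Spry4, Dusp4, Dusp5 and Dusp8 stood under all 18 other settings with both herbicides.

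**Figure D3:**
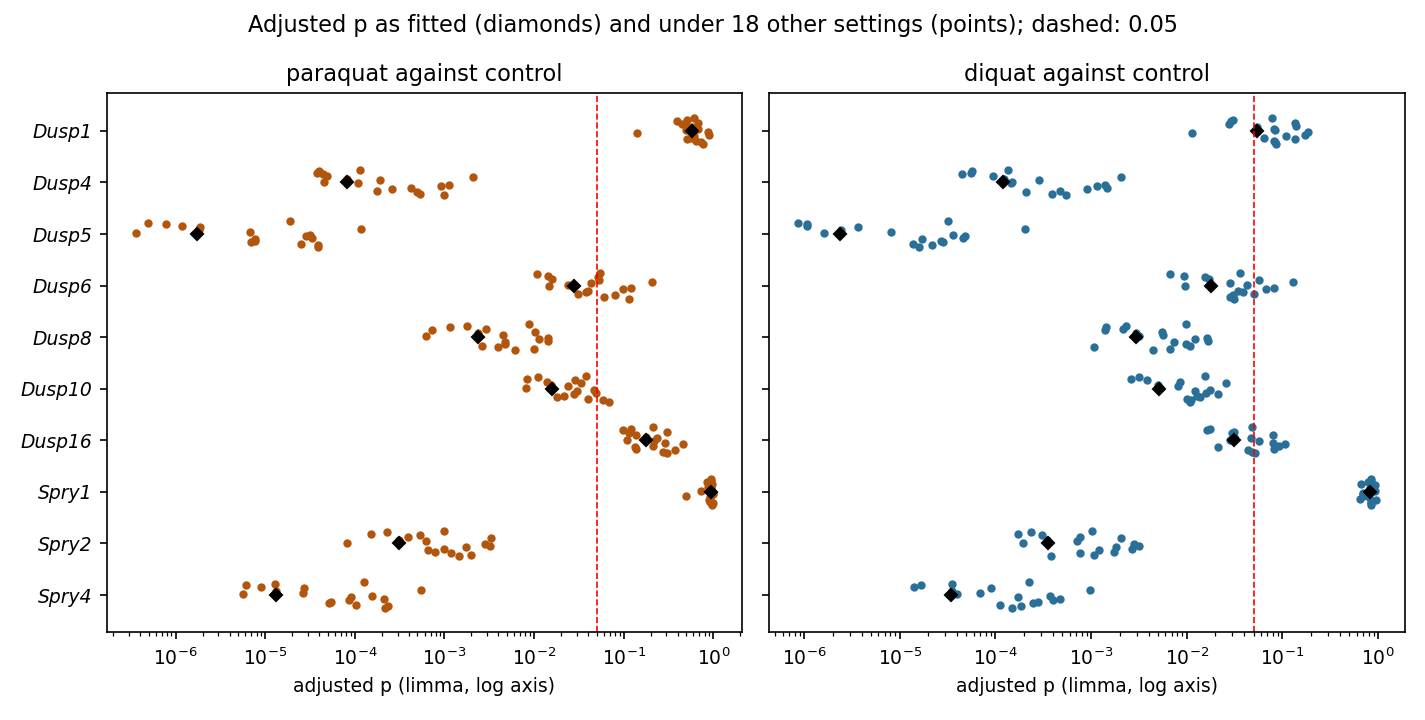
limma adjusted p for each gene in the fit as described (black diamonds) and under 18 other settings (points), on a log axis; the dashed line marks 0.05. The points for Dusp4, Dusp5, Dusp8, Spry2 and Spry4 all lie left of the line in both panels, while those of Dusp6 lie on both sides of it in both panels, as do those of Dusp10 with paraquat and of Dusp1 and Dusp16 with diquat.

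Paraquat and diquat differ in structure: paraquat carries a methyl group on each nitrogen, and in diquat the nitrogens are linked by an ethylene bridge. The doses differed as well, 126 µM and 18 µM, so the contrast sets the treatments as given against each other and not the compounds at a matched dose. Paraquat minus diquat passed for 0 of the 10 genes, and for 0% of the 22180 genes, in limma. At an unadjusted p under 0.05 the counts were 0 of the 10 genes and 2371 of all genes (10.7%). The smallest adjusted p among the 10 was 0.475, for Dusp1, whose log2 difference was 0.11 (95% interval -0.0021 to 0.22). For Dusp4 the difference was 0.06 (-0.09 to 0.22) and for Dusp5 it was 0.05 (-0.04 to 0.13). For Spry4 it was 0.08 (-0.0041 to 0.17) and for Dusp16 it was -0.06 (-0.16 to 0.04). Every one of the 10 intervals included 0, and their ends lay between -0.18 and 0.22. The paraquat arrays were all above the diquat arrays for Dusp1 and Spry4 and all below them for Dusp10, which is 2 of 10 genes above against 5.36% of all genes, and 1 of 10 below against 5.18% (10.5% of all genes were apart in either direction).

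**Figure D4:**
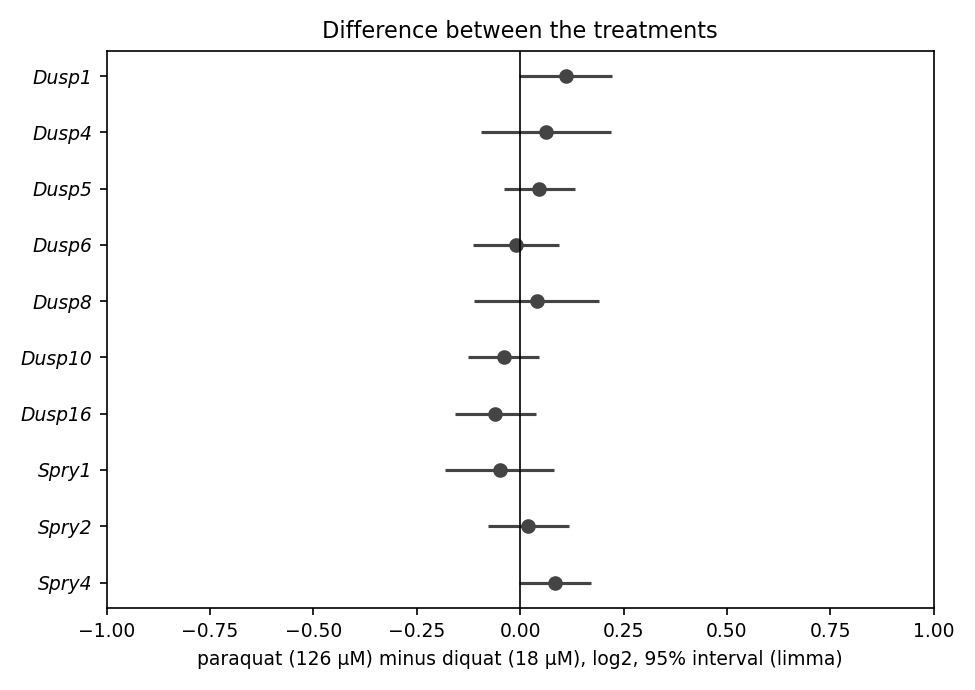
Paraquat (126 µM) minus diquat (18 µM) on the log2 scale for each gene, with limma's 95% interval. Every interval includes 0 and lies between -0.18 and 0.22.

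The RefSeq promoter table of the mouse assembly GRCm38.p6, which gives 250 bases before to 50 bases after each gene's start, held 8 of the 10 genes. The promoters of Dusp4 and Spry4 were not used here. Binding motifs of factors that act below MAP kinases, or in stress responses, were looked for on both strands. The cyclic AMP response element TGACGTCA, a palindrome, was found in 2 of 8 promoters, those of Dusp1 and Dusp8, and in 1.79% of all 32851 promoters in the table. The CArG box, the site of the serum response factor, was found in 1 of 8, that of Dusp5, and in 1.63% of all. The AP-1 site TGACTCA, which reads TGAGTCA on the other strand, was found in 0 of 8 and in 5.2% of all. The composite ATF4 and C/EBP site TGATGCAA was in 0 of 8 and 0.895% of all, and the EGR sites GCGTGGGCG and GCGGGGGCG were in 0 of 8 each and in 0.612% and 2.91% of all. A match is a run of letters and not a measured binding site.

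The 3 promoters with a match are shown 5′ to 3′ on the gene's strand, because they set 2 genes that rose beside one whose change did not pass, with the matched letters in capitals. Dusp5 lies on the plus strand and its window is chr19:53528895-53529194. Its 2 CArG boxes are back to back and begin 82 and 72 bases before the start. Dusp8 lies on the minus strand (chr7:142095235-142095534), and its 2 response elements begin 107 and 63 bases before the start. Dusp1 lies on the minus strand (chr17:26508423-26508722), and its element begins 143 bases before the start. The response element is present both in Dusp8, which rose, and in Dusp1, whose change did not pass. Any part of these elements or boxes in the changes was not tested.
Dusp5: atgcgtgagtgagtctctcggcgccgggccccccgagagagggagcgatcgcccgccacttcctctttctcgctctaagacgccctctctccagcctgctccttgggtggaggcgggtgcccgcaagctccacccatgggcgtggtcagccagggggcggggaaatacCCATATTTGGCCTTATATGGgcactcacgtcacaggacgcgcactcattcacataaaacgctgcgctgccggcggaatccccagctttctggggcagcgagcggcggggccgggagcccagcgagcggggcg
Dusp8: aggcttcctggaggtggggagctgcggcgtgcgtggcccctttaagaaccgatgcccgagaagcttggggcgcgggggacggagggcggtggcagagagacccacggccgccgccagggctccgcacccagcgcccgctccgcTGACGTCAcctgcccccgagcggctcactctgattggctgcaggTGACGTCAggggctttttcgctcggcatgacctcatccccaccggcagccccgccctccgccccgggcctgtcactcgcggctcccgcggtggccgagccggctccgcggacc
Dusp1: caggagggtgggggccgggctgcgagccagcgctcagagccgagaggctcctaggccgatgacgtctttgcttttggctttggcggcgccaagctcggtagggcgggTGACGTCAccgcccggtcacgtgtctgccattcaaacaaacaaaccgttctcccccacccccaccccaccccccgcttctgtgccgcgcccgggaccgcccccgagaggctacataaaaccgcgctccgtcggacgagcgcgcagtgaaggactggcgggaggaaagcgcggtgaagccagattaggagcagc

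All 8 promoters had a G and C content above the median of the table, 52.7%, with values from 57.3% for Dusp6 to 73.3% for Dusp8. Spry1, whose change did not pass, had 64.3% and Spry2, which rose, had 62.7%.

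Of 18 other phosphatase genes listed here, 2 passed with paraquat and 2 with diquat (11.1% with each), against 4.57% and 7.02% of all genes in either direction. Of 3 other classical MAP kinase phosphatases 1 rose with each herbicide: Dusp7, a cytoplasmic ERK phosphatase, by 0.29 on the log2 scale with paraquat (limma adjusted p = 0.0234) and 0.34 with diquat (0.00863). Dusp2 and Dusp9, named here after their values were seen, changed by -0.01 and 0.16 with paraquat and by -0.07 and 0.17 with diquat, and did not pass. Of 12 atypical dual-specificity phosphatases, which lack the MAP kinase binding domain, and 3 slingshot phosphatases, a separate family that acts on cofilin, 0 rose and 1 fell with each herbicide. That was Dusp19 (log2 -0.18 with paraquat and -0.20 with diquat, limma adjusted p = 0.0396 and 0.0216). The median log2 changes over these 15 genes were 0.01 with paraquat and 0.06 with diquat. Of the other Sprouty gene and the 3 Spred genes, whose products share the Sprouty domain, 0 of 4 passed with paraquat, while with diquat Spred2 rose (log2 0.18, limma adjusted p = 0.0428) and Spry3 fell to 5.63 in diquat cells, against 5.87 in control cells (log2 -0.24, limma adjusted p = 0.0217).

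Among the kinase cascades the share of genes past the test was 0% with paraquat and 6.25% with diquat for the ERK cascade and 17.6% with each for the JNK and p38 cascades, against 4.57% and 7.02% of all genes. Of 16 ERK cascade genes measured, from the EGF receptor to ERK and its substrate kinases, 0 rose and 0 fell with paraquat, and with diquat 1 rose, the RAS activator gene Sos2 (log2 0.33, limma adjusted p = 0.0176). Of 17 genes of the JNK and p38 cascades, 1 rose and 2 fell with paraquat, and 2 rose and 1 fell with diquat. Map3k1, an upstream kinase of JNK, fell with both (log2 -0.34 with paraquat and -0.35 with diquat, limma adjusted p = 0.00726 and 0.00517), and Map2k3, the kinase that activates p38, rose with both (log2 0.22 and 0.22, limma adjusted p = 0.0465 and 0.0316). Map2k6, another p38 activator, fell with paraquat (log2 -0.33, limma adjusted p = 0.0321), and Mapkapk3, a kinase downstream of p38, rose with diquat (log2 0.22, limma adjusted p = 0.0216). The medians of these lists lay at 0.03 and 0.00 with paraquat and at 0.06 and 0.00 with diquat.

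Of 17 measured transcripts that ERK signalling is known to induce, 10 rose and 0 fell with paraquat (median log2 change 0.35) and 11 rose and 0 fell with diquat (median 0.38). For this and the 2 lists that follow, 2.33% of all genes rose and 2.24% fell with paraquat. With diquat 4.13% of all genes rose and 2.89% fell. Egr1, an immediate early transcription factor, averaged 9.73 in paraquat, 9.81 in diquat and 9.14 in control cells, a log2 change of 0.59 with paraquat and 0.68 with diquat. Plaur, the urokinase receptor gene, changed by 1.33 and 1.39, Ier3, an immediate early gene, by 0.65 and 0.88, and Lif, a cytokine gene, by 0.66 and 0.71, each with paraquat and with diquat in that order. The list was mixed. Fos, Etv1, Ccnd1, Epha4, Elk3 and Il11, named after their values were seen, did not pass with either herbicide. Their log2 changes ran from -0.13 to 0.10 with paraquat and from -0.06 to 0.03 with diquat. Maff passed with diquat only. Of 6 EGF receptor ligands 3 rose and 0 fell with each herbicide: the log2 changes of Btc, Ereg and Hbegf were 1.05, 1.04 and 0.74 with paraquat and 1.22, 1.08 and 0.70 with diquat. Of 15 further inhibitors of receptor and RAS signalling, 1 rose and 1 fell with paraquat and 4 rose and 1 fell with diquat. Sh2b3, an adaptor that dampens cytokine receptors, rose by 0.34 with paraquat and 0.27 with diquat (limma adjusted p = 0.00588 and 0.0149), and Dab2, an endocytic adaptor, fell with both (log2 -0.33 and -0.32, limma adjusted p = 0.0232 and 0.0206). Cbl, Lrig1 and, named after its value was seen, Rasa2 rose with diquat by 0.29, 0.25 and 0.18, and their paraquat changes of 0.16, 0.19 and 0.10 did not pass.

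**Figure D5:**
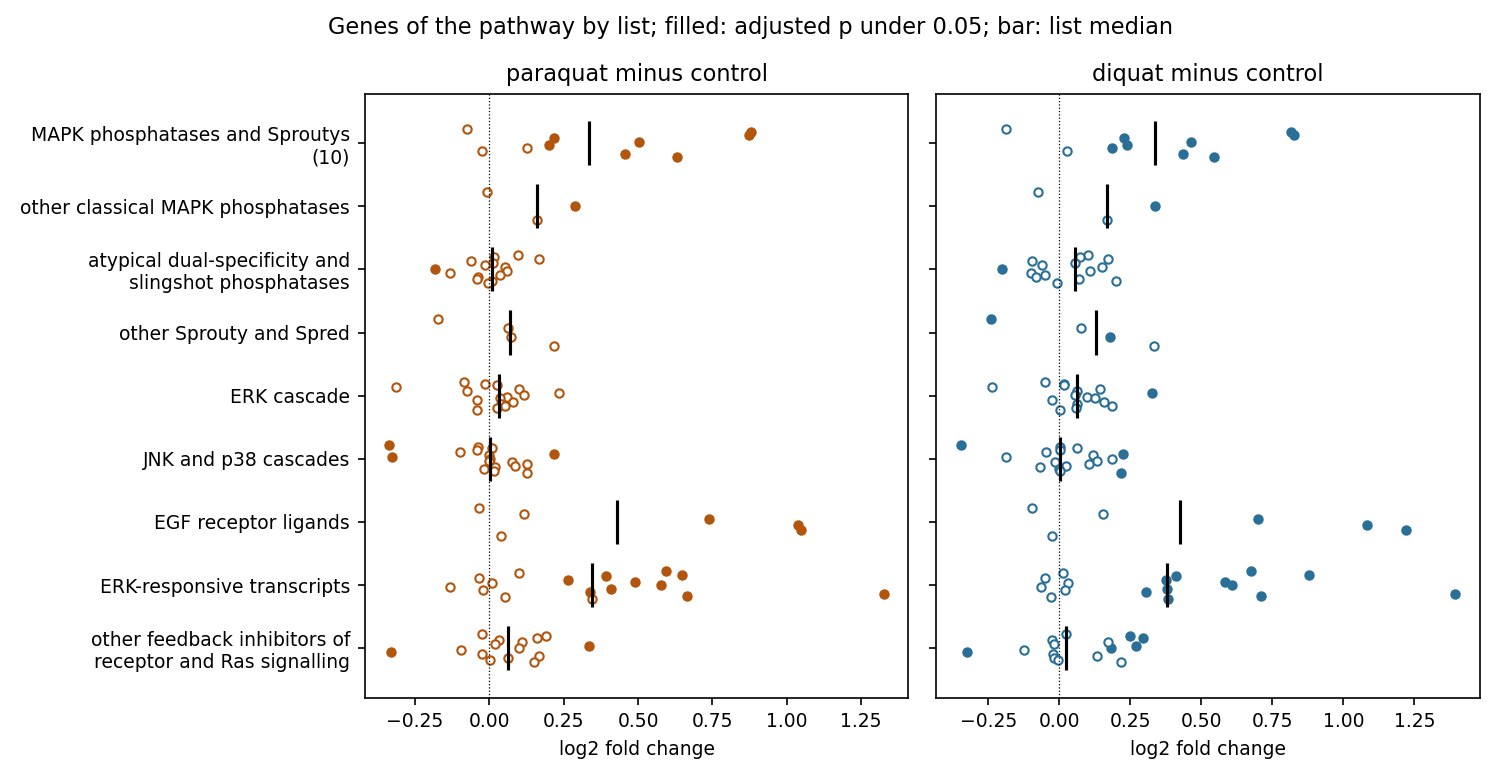
log2 fold change of each measured gene (points) by list, with paraquat left and diquat right; filled points have a limma adjusted p under 0.05 and the bar is the list's median. The 10 MAP kinase phosphatase and Sprouty genes, the EGF receptor ligands and the ERK-responsive transcripts have medians between 0.34 and 0.43, and the other lists have medians between 0.00 and 0.17.

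The 10 genes could be ordered among themselves by how alike their arrays were, taking for each gene the log2 difference of every array from that gene's own control mean. The closest pair was Dusp6 and Dusp10, with a root-mean-square difference of 0.0448 over the 9 arrays, and Dusp4 and Dusp5 differed by 0.10. Among genes outside the set the 3 closest to Dusp5 were Vps37b (0.0659), Cth (0.0813) and Pvr (0.0849), and the 3 closest to Dusp4 were Irx3 (0.0947), Vps37b (0.096) and Plk3 (0.101). Vps37b stood in both, with log2 changes of 0.79 with paraquat and 0.80 with diquat. Spry4 was most like Atf4 (0.0421), Tsc22d2 (0.0495) and Nr4a1 (0.0584), and Spry2 most like Zfp697 (0.0493), Rnd1 (0.054) and Tnfrsf23 (0.0589). Dusp8 was most like Kdm6b (0.058), Slc7a5 (0.0582) and Fnip1 (0.0621). Dusp10 was most like Nars (0.0224), Lamc1 (0.0314) and Gmeb2 (0.0337), and Dusp6 most like Gstp2 (0.0379), Gmeb2 (0.0402) and Tollip (0.0413). Smaller changes leave less room for such differences, so the measure is a description within each gene's own size of change.

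Cell type markers moved with the groups in part. The mean log2 level of 11 hepatocyte markers was 9.55 to 9.72 on the paraquat arrays, 9.61 to 9.65 on the diquat arrays and 9.84 to 9.90 on the control arrays, and the treated arrays were all below the control arrays. Of the 11, 4 fell with paraquat (Ttr, Fga, Fgb and Cps1) and 5 with diquat (Ttr, Fga, Cps1, Apob and Hnf4a), while the log2 change of Alb was -0.0067 with each. Among all genes 2.24% fell and 2.33% rose with paraquat, and 2.89% fell and 4.13% rose with diquat. Of 6 macrophage markers 1 rose with diquat (Cd68, log2 0.40, limma adjusted p = 0.0343) and 0 with paraquat, while Adgre1 and Ptprc stayed between 5.28 and 5.55 in all groups. Of 6 endothelial and 6 stellate or fibroblast markers 0 passed with either herbicide. Of 5 cholangiocyte markers Sox9 rose with both (log2 0.39 with paraquat and 0.45 with diquat), and Krt7 and Krt19 fell with diquat (log2 -0.29 and -0.16). Markers of other cell types were not all dim. On the control arrays the mean level was 8.33 to 8.40 for the cholangiocyte and 6.75 to 6.84 for the stellate or fibroblast markers. It was 6.13 to 6.16 for the macrophage and 5.72 to 5.77 for the endothelial markers. The part of these markers in the changes above was not tested, and in bulk RNA fewer cells of a type and less RNA per cell cannot be told apart.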

How the data were processed

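The authors deposited log2 expression values. Per the submitters' processing notes these were made with Affymetrix Expression Console 1.1 and RMA, a method with background correction, quantile normalization between arrays and probe summaries. Scanner data and detection calls were not analysed here, so a dim gene cannot be told from background. Precision is limited by the number of arrays. Of 34472 features, 23521 carried 1 symbol in the platform annotation, 1814 several and 9137 none. Each gene was represented by the feature with the highest mean over 9 arrays (22180 genes).

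All 9 arrays entered 1 limma 3.58.1 fit (R 4.3.3; lmFit and eBayes, 1 mean per group, no covariates), with Benjamini-Hochberg adjustment over all genes and a threshold of 0.05. Errors are limma's SE or intervals of 95%, or SDs over 3 arrays where so named. The fit was tested on simulated data. The 10 genes and the gene lists were chosen with earlier results of these data known. Within each list, up to 4 genes past the test with the largest mean change were named, or the top 1. Likeness was the root-mean-square difference over arrays, giving 3 genes for each of the 7 that rose with both. The 18 alternatives covered a replicate block, variance model, level filter, centring, quantile normalization, groups fitted, features, array weights and leaving out each of 9 arrays.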

Additional observations from a re-analysis of the deposited data

How the results depend on the processing

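The count of the 10 genes past the test lay between 6 and 9 with diquat and between 5 and 7 with paraquat over the 18 alternatives, and it was 0 between the treatments under each. Each diquat count of 9 held 8 rises and 1 fall, that of Dusp1. The count of 7 without control replicate 2 held 6 rises and the fall of Dusp1. No call among the 10 turned direction. The calls lost were those of Dusp6, Dusp16 with diquat and Dusp10 with paraquat. Besides the single arrays named in the report, Dusp6 did not pass when only the 2 groups compared were fitted (limma adjusted p = 0.0536 with paraquat and 0.0573 with diquat) or with the mean of its 2 features (0.205 and 0.129), and with paraquat not after centring (0.0518). Dusp16 with diquat did not pass with the 2 groups alone (0.0801). The count of all genes was 959 with diquat for the 2 groups alone, against 1558, and lay between 802 and 1908 without each array in turn (887, 802 and 1000 without control replicates 1, 2 and 3). With paraquat it was 1623 with array weights, against 1014, and lay between 574 and 1197 without each array (596 and 574 without control replicates 1 and 2, 575 and 574 without paraquat replicates 2 and 3). Between the treatments it was 4 for the genes at or above the median level, 1 after centring, 4 after quantile normalization and 0 to 3 without each array, against 0, and none of these were among the 10 genes. Signs turned for values that did not pass. The Spry1 change with diquat was -0.01 after quantile normalization, -0.011 with array weights and -0.042 to 0.063 without each array, and with paraquat it was -0.092 to 0.013 without each array. The difference between the treatments was 0.012 for Dusp6 after quantile normalization, 0.0074 with array weights and -0.03 to 0.01 without each array. It was -0.037 to 0.088 for Dusp8 without each array. For Spry2 it was -0.013 after centring and -0.022 to 0.043 without each array. The cause was not tested. With the replicate number as a block, 6 of the 10 genes passed with paraquat (Dusp6 was lost at a limma adjusted p of 0.0548), 8 with diquat and 0 between the treatments, and the counts of all genes were 930, 1416 and 0. The correlations of same-numbered arrays' deviations from their group means were 0.157, 0.134 and 0.0893 for paraquat and control, where each array correlated best with its own number, -0.192, 0.198 and -0.124 for paraquat and diquat, and 0.043, 0.075 and -0.107 for diquat and control. Not every pair was over 0.1 in any of these, so the numbers were not taken to pair the arrays, and the labels disagree on the numbers of diquat and paraquat replicates 2 and 3.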
